A study of Mus musculus with 8 samples.

Results

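The genes described here encode the machinery by which a broken meiotic chromosome invades its homologue: Dmc1, Meiob, Spata22, Brca2, Hsf2bp, Psmc3ip, Mnd1 and Rad51ap2. They were taken by gene name from the deposited expression table, where all 8 of 8 names were found among 54532 genes. Of these, 7 were among the 12141 protein-coding genes that had a mean above 1 FPKM in both groups and entered the test across genes. Rad51ap2 was below that limit in the controls and is given from a fit of all 19122 protein-coding genes without the limit.

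After programmed DNA breaks are made in meiotic prophase, their ends are resected to single-stranded DNA, which is first coated by RPA and, in germ cells, by the RPA-like pair MEIOB and SPATA22. Mediators, among them BRCA2 and its meiotic partner HSF2BP, help the meiotic recombinase DMC1 to replace that coat, and the HOP2-MND1 heterodimer, whose HOP2 subunit is encoded by Psmc3ip, stimulates the recombinase filament to invade the homologous chromosome. Mouse spermatocytes that lack Dmc1, Meiob, Spata22, Hsf2bp, Psmc3ip or Mnd1 fail to repair their breaks and arrest in meiosis.

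Whole-testis RNA was sequenced from 4 control mice, Sync-Spdyafl/fl, and from 4 conditional knockout mice, Sync-SpdyacKO, each giving 1 library. Both groups were homozygous for a Spdya allele with loxP sites around exon 2, on a C57BL/6J background. Spermatogenesis was synchronized in both with 7 daily injections of a blocker of retinoic acid synthesis from postnatal day 2, followed by retinoic acid (RA) at postnatal day 9. Both groups also received tamoxifen, which the labels place at RA7.5 and RA8.5, in days after the RA injection, and both were collected at RA11.5, described as mid-late pachytene. The Sync-SpdyacKO mice (genotype Spdyafl/fl;Ddx4-CreERT2) additionally carried a Cre recombinase that is expressed from the germ cell gene Ddx4 and activated by tamoxifen, so only germ cells were to lose exon 2 of Spdya, the gene of a CDK2 activator. Since the control genotype lists no Cre, an effect of the activated Cre itself and one of the deletion cannot be told apart. The study asked whether transcription from the sex chromosomes is disturbed after this deletion. The genes below are autosomal, and their comparison gives the state of the recombination machinery in the same testes.

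FPKM divides the fragments assigned to a gene by the gene's length and by a scaled library size. The fragments recovered from these values ranged from 13978342 to 19583091 per library. Control replicate 1 stood apart, with 0.464% of its fragments on mitochondrial genes against 2.20% to 3.74% in the other 7 libraries. Spdya averaged 21.3 ± 1.76 FPKM in the Sync-Spdyafl/fl and 24.1 ± 5.45 FPKM in the Sync-SpdyacKO libraries (SD, n = 4 each; log2 fold change 0.15, limma adjusted p = 0.787), a level over the whole gene that gave no check of the labels. The defining germ cell genes were present: Ddx4, an RNA helicase of germ cells, averaged 225 and 200 FPKM, and Ybx2, an mRNA-binding protein of pachytene spermatocytes and the most abundant gene of the pachytene list, 638 and 549 FPKM. The Cre cassette was inserted into an exon of Ddx4 itself, and its effect on the Ddx4 level in the Sync-SpdyacKO libraries was not tested. The 4 round spermatid markers were each at 0 in at least 1 library, with summed levels of at most 0.865 FPKM. The summed level of 6 Sertoli cell genes was 818 to 1079 FPKM in the Sync-Spdyafl/fl and 1113 to 1324 FPKM in the Sync-SpdyacKO libraries, a separation carried by Clu. The sum of the other 5, an addition made after seeing the data, overlapped at 100.3 to 138 and 108 to 137 FPKM, and the groups overlapped in each of them. In a whole testis, fewer cells of a type and less RNA per cell cannot be told apart.

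Of the 7 genes tested, none was called, which took a limma adjusted p below 0.05 together with a log2 fold change past 1 in either direction, while 0.0165% of all genes tested were. At an unadjusted p below 0.05 there was 1 of 7, Meiob, against 10.9% of all genes tested. The 2 groups were fully apart for 1 of the 7, again Meiob, against 6.24% of all genes tested. Rad51ap2, outside these 7, also had no overlap between the groups, against 5.50% of the 19122 genes tested without the limit, and an unadjusted limma p below 0.05, against 10.0% of those genes. The median log2 fold change of the 7 was -0.12, and that of all 12141 genes 0.01. Over all 8 genes the mean was lower in the Sync-SpdyacKO libraries for 5 and higher for Meiob, Mnd1 and Rad51ap2.

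**Figure D1:**
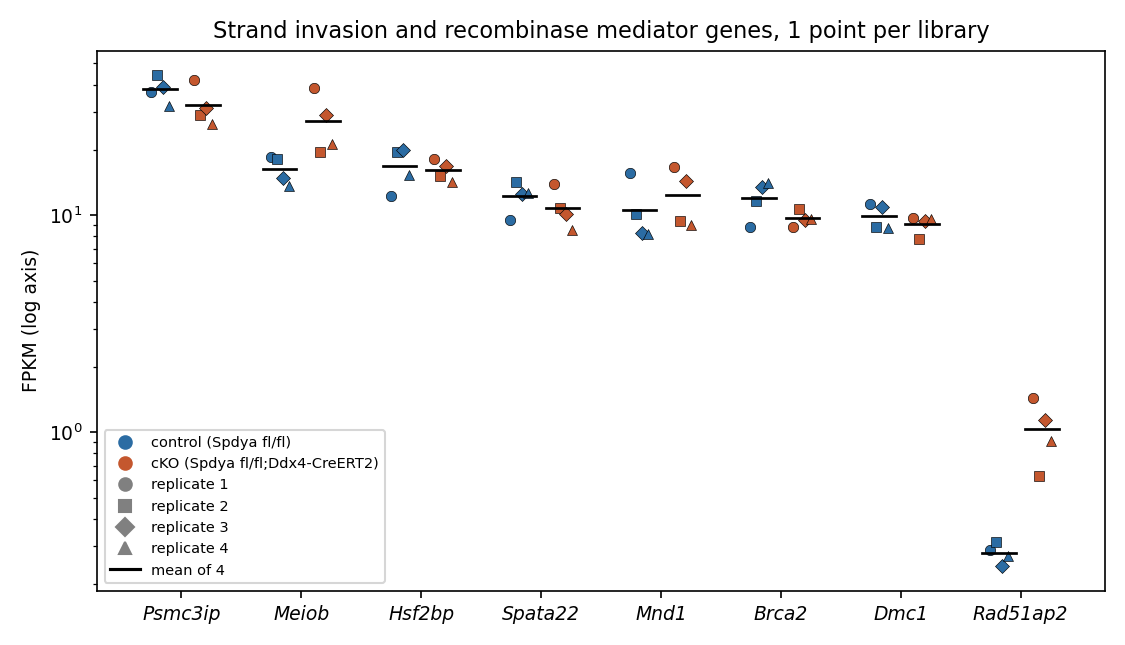
FPKM of each of the 8 genes (log axis) in the 4 Sync-Spdyafl/fl libraries (blue) and the 4 Sync-SpdyacKO libraries (orange), with a symbol per replicate and a bar at the mean of 4. Psmc3ip lies highest and Rad51ap2 far below the others, and the groups are apart in Meiob and Rad51ap2 but overlap in the other 6 genes.

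Of the single-stranded DNA-binding pair MEIOB and SPATA22, Meiob had its higher values in the Sync-SpdyacKO libraries, while those of Spata22 overlapped. Meiob (ENSMUSG00000024155, chr17:24804382-24839787 on GRCm38, plus strand) encodes the subunit that resembles the large RPA subunit. It had 18.5, 18.1, 14.9 and 13.7 FPKM in Sync-Spdyafl/fl replicates 1 to 4 and 38.5, 19.6, 28.8 and 21.4 FPKM in Sync-SpdyacKO replicates 1 to 4. Every Sync-SpdyacKO library was above every Sync-Spdyafl/fl library, with replicates 1 and 3 highest and replicate 2 just above the top control. The means were 16.3 ± 2.38 and 27.1 ± 8.58 FPKM (SD, n = 4 each), a ratio of 1.66, with 381 to 1270 fragments per library. The log2 fold change on the log2(FPKM + 0.1) scale was 0.69 (standard error 0.21, 95% confidence interval 0.23 to 1.15), which did not pass the threshold over all genes tested (limma adjusted p = 0.280). The exact permutation test of Meiob alone gave p = 0.0286, two-sided and not adjusted. That is the smallest that 4 libraries against 4 allow, and it was fixed by the full separation. Without Sync-SpdyacKO replicates 1 and 3, a setting chosen after seeing the data, the log2 fold change was 0.34 (limma adjusted p = 0.662).

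Spata22 (ENSMUSG00000112920, chr11:73329741-73346044, plus strand), the obligate partner of MEIOB, had 9.52, 14.2, 12.5 and 12.6 FPKM in Sync-Spdyafl/fl replicates 1 to 4 and 13.9, 10.8, 10.1 and 8.51 FPKM in Sync-SpdyacKO replicates 1 to 4. The groups overlapped, and control replicate 1 and Sync-SpdyacKO replicate 1 each stood on the far side of their own group. The means were 12.2 ± 1.94 and 10.8 ± 2.27 FPKM (SD, n = 4 each; log2 fold change -0.18, 95% confidence interval -0.55 to 0.20, limma adjusted p = 0.762). The annotated gene Gm49340 shares 1025 exonic bases with Spata22 on the same strand, 80.5% of its exonic sequence. Gm49340 had 4 fragments over the 8 libraries and Spata22 1965. How fragments in the shared bases were assigned is not given in the sources used here, so the level of Spata22 is uncertain.

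The ratio of Meiob to Spata22 was taken within each library. It was 1.94, 1.28, 1.19 and 1.08 in Sync-Spdyafl/fl replicates 1 to 4 and 2.76, 1.81, 2.84 and 2.51 in Sync-SpdyacKO replicates 1 to 4. Only control replicate 1, at 1.94, was above a Sync-SpdyacKO library, replicate 2. The mean log2 ratio was 0.41 ± 0.37 and 1.28 ± 0.30 (SD, n = 4 each), a difference of 0.87 that did not pass the test (exact permutation test, two-sided, p = 0.0571, and 0.229 after Benjamini-Hochberg adjustment over the 4 ratios compared). Without control replicate 1 the difference was 1.04 with p = 0.0286 in the exact permutation test, the smallest that 3 libraries against 4 allow and not adjusted. With any other single library left out, the exact permutation p was 0.0571 to 0.0857.

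**Figure D2:**
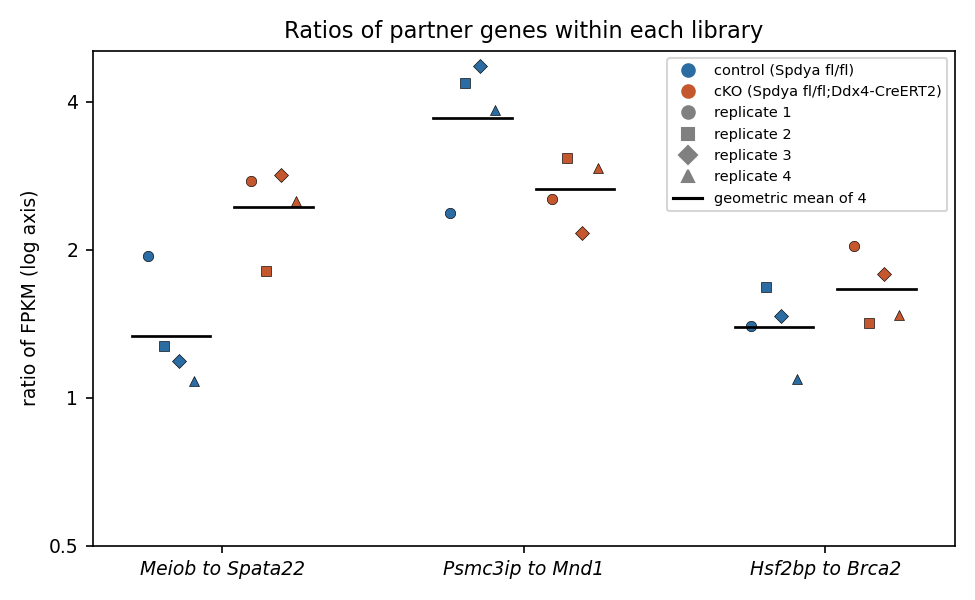
Ratio of the FPKM of 2 functionally linked genes within each library (log axis) for 3 gene pairs, with a symbol per replicate, Sync-Spdyafl/fl in blue, Sync-SpdyacKO in orange and a bar at the geometric mean of 4. Meiob to Spata22 is higher in the Sync-SpdyacKO libraries except for the overlap of control replicate 1 with Sync-SpdyacKO replicate 2, and in the other 2 ratios the groups also overlap.

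Dmc1 (ENSMUSG00000022429, chr15:79561497-79605109, minus strand), the recombinase made only in meiotic cells, had 11.3, 8.83, 10.9 and 8.72 FPKM in the Sync-Spdyafl/fl libraries, against 9.66, 7.77, 9.40 and 9.65 FPKM in the Sync-SpdyacKO libraries. All but Sync-SpdyacKO replicate 2, the lowest of the 8, lay within the range of the controls. The means were 9.93 ± 1.35 and 9.12 ± 0.909 FPKM (SD, n = 4 each), and the log2 fold change of -0.12 had a 95% confidence interval of -0.40 to 0.16 (limma adjusted p = 0.790). It had 302 to 456 fragments per library.

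Brca2 (ENSMUSG00000041147, chr5:150522630-150570329, plus strand), a mediator that binds DMC1, had 8.78, 11.7, 13.5 and 14.1 FPKM in the Sync-Spdyafl/fl libraries, against 8.86, 10.6, 9.50 and 9.63 FPKM in the Sync-SpdyacKO libraries. The 4 Sync-SpdyacKO libraries lay below control replicates 2 to 4 but above control replicate 1, the lowest of the 8. Brca2 had the most fragments of the 8 genes, 1570 to 3143 per library, and means of 12.0 ± 2.39 and 9.66 ± 0.739 FPKM (SD, n = 4 each). The fitted log2 fold change of -0.29 (standard error 0.15, 95% confidence interval -0.62 to 0.04) did not pass the threshold (limma adjusted p = 0.537). It was -0.43 without control replicate 1, the library that stood apart, with a limma adjusted p of 0.0937.

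Hsf2bp (ENSMUSG00000002076, chr17:31944769-32034508, minus strand), whose product binds BRCA2 in meiotic cells, had 12.3, 19.6, 19.9 and 15.4 FPKM in the Sync-Spdyafl/fl libraries, against 18.1, 15.1, 16.9 and 14.2 FPKM in the Sync-SpdyacKO libraries. All Sync-SpdyacKO libraries lay within the range of the controls. The log2 fold change was -0.04 (95% confidence interval -0.40 to 0.32, limma adjusted p = 0.950), and its sign changed in several alternatives, among them rescaling to TPM at 0.04. The ratio of Hsf2bp to Brca2 was 1.09 to 1.68 in the Sync-Spdyafl/fl and 1.42 to 2.04 in the Sync-SpdyacKO libraries, a log2 difference of 0.25 (exact permutation test, two-sided, p = 0.171, adjusted 0.229).

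Of the HOP2-MND1 pair, Psmc3ip (ENSMUSG00000019303, chr11:101091823-101095436, minus strand) had 37.1, 44.1, 39.0 and 31.7 FPKM in the Sync-Spdyafl/fl libraries, against 42.2, 28.9, 31.0 and 26.4 FPKM in the Sync-SpdyacKO libraries. In the Sync-SpdyacKO group, 3 libraries were below every control, and replicate 1 was above 3 of the 4 controls. The means were 38.0 ± 5.13 and 32.1 ± 6.95 FPKM (SD, n = 4 each), with a log2 fold change of -0.25 (95% confidence interval -0.61 to 0.10, limma adjusted p = 0.617). It was -0.39 without Sync-SpdyacKO replicate 1 (limma adjusted p = 0.278) and -0.17 without Sync-SpdyacKO replicate 4. Psmc3ip shares 385 exonic bases, 21.2% of its exonic sequence, with Mlx on the opposite strand, which averaged 8.34 and 9.16 FPKM. The use of strand in the counting is not given in the sources used here, so fragments of the overlap cannot be told apart.

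Mnd1 (ENSMUSG00000033752, chr3:84087933-84155786, minus strand), which encodes the other subunit, had 15.6, 10.1, 8.26 and 8.23 FPKM in the Sync-Spdyafl/fl libraries, against 16.6, 9.38, 14.3 and 9.02 FPKM in the Sync-SpdyacKO libraries. Both groups split within themselves, with control replicate 1 and Sync-SpdyacKO replicates 1 and 3 high and the other 5 libraries between 8.23 and 10.1 FPKM. The log2 fold change was 0.23 (95% confidence interval -0.33 to 0.78, limma adjusted p = 0.802), 0.43 without control replicate 1 and 0.07 without Sync-SpdyacKO replicate 1. It was -0.14 without Sync-SpdyacKO replicates 1 and 3. The ratio of Psmc3ip to Mnd1 was 2.38, 4.37, 4.72 and 3.85 in the Sync-Spdyafl/fl libraries, against 2.54, 3.08, 2.17 and 2.93 in the Sync-SpdyacKO libraries. Control replicate 1 alone fell among the Sync-SpdyacKO values. The log2 difference of -0.48 did not pass the test (exact permutation test, two-sided, p = 0.114, adjusted 0.229). It was -0.69 with an unadjusted p = 0.0286 in the exact permutation test without control replicate 1, and with any other single library left out the exact permutation p was 0.143 to 0.229.

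Rad51ap2 (ENSMUSG00000086022, chr12:11456079-11462928, plus strand) is a gene of meiotic cells. It was the least abundant of the 8 genes, at 0.288, 0.313, 0.242 and 0.269 FPKM in Sync-Spdyafl/fl replicates 1 to 4 and 1.45, 0.631, 1.14 and 0.909 FPKM in Sync-SpdyacKO replicates 1 to 4. These values rest on 12, 18, 12 and 14 fragments in the controls and 89, 32, 61 and 49 fragments in the Sync-SpdyacKO libraries. The controls lay close together, and the lowest Sync-SpdyacKO library, replicate 2, was above all of them. The means of 0.278 ± 0.0300 and 1.03 ± 0.346 FPKM (SD, n = 4 each) had a ratio of 3.71. Its log2 fold change of 1.53 (standard error 0.25, 95% confidence interval 0.98 to 2.09) did not pass the threshold over the 19122 genes (limma adjusted p = 0.149). By the exact permutation test of the gene alone p was 0.0286, two-sided and not adjusted, the smallest possible and again fixed by the full separation. Exact 95% Poisson intervals, which cover counting error only, did not touch in 13 of the 16 pairings of a control with a Sync-SpdyacKO library. In Rad51ap2 the Sync-SpdyacKO library was the higher in each of them. Counted in either direction, the number was 13 for Meiob, and 14 for Brca2 and 12 for Psmc3ip, whose groups overlapped. In Brca2 the pairings ran in both directions. The intervals narrow with more fragments, so these counts cannot be compared between genes and do not set Rad51ap2 apart. The log2 fold change was 1.81 in voom on the recovered fragments (adjusted p = 0.116), and 0.65 with a pseudocount of 1, since a pseudocount above the level of the gene shrinks the change. Without Sync-SpdyacKO replicates 1 and 3 it was 1.19 (limma adjusted p = 0.553).

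The E2F-type sequence GGCGGGAA, a site for factors that regulate S-phase and repair genes, was 1 of 4 sequences looked for near the start sites. RefSeq promoters (GRCm38.p6, 250 bases before to 50 after the start site, both strands) were given for 7 of the 8 genes, all but Meiob. The sequence was in 2 of these 7 and in 2.19% of 32851 promoters. Both matches lay at or next to the start site. The first base was 13 bases before it in Rad51ap2, the gene with the largest fold change of the 8. In Spata22, whose groups overlapped, it was 5 bases before, so that match runs over the start site. The RefSeq start site of Rad51ap2 lies before the gene start given above. The 97 bases before and 3 bases after the start site are shown for these 2 genes, with the match in capitals, for Rad51ap2 chr12:11455958-11456057 and for Spata22 chr11:73329644-73329743, both on the plus strand.
Rad51ap2: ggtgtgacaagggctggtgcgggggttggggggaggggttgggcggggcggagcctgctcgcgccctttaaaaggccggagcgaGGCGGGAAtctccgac
Spata22: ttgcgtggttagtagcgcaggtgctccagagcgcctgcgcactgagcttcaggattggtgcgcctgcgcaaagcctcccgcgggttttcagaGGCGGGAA
The cyclic AMP response element TGACGTCA was found in 1 of the 7, Brca2, 20 bases before the start site, and in 1.79% of all promoters. The E-box CACGTG (7.15% of all promoters) and CNCCTCAG (7.94%), the sequence bound by STRA8-MEIOSIN at meiotic entry, were in none of the 7 windows. A match is a description of the letters in the window, and no binding was measured.

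Because FPKM is per length, levels can be ordered across the genes, except that the levels of Spata22 and Psmc3ip are uncertain for the shared bases given above. Over the 8 libraries Psmc3ip was highest, with a mean of 35.1 FPKM, followed by Meiob at 21.7, Hsf2bp at 16.5, Spata22 at 11.5, Mnd1 at 11.4, Brca2 at 10.8, Dmc1 at 9.53 and Rad51ap2 at 0.655 FPKM. Psmc3ip was above Meiob, Hsf2bp above Spata22 and Dmc1 above Rad51ap2 in 8 of 8 libraries. The last gap was the widest, with a mean log2 ratio of 4.18 ± 1.09 (SD, n = 8). By group means, Meiob had rank 3 in the Sync-Spdyafl/fl and rank 2 in the Sync-SpdyacKO libraries, above Hsf2bp in 1 of 4 and 4 of 4 libraries. Mnd1 had ranks 6 and 4, below Spata22 in 3 of 4 and 1 of 4 libraries. Spata22, Mnd1, Brca2 and Dmc1 followed each other within their spread, each next neighbour being lower in 3 to 5 of the 8 libraries.

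Each gene's log2(FPKM + 0.1) was set against its own mean over the 8 libraries. Meiob and Rad51ap2 were highest in Sync-SpdyacKO replicate 1, then in replicates 3, 4 and 2. Hsf2bp, Psmc3ip and Mnd1 also shared an order among themselves, replicates 1, 3, 2 and 4. That order was not particular to them. The summed level of 4 germ cell genes had it too, at 738, 590, 528 and 498 FPKM. The sum of 8 pachytene genes had the order 1, 2, 3 and 4. Like Meiob and Rad51ap2, Mnd1 was highest in Sync-SpdyacKO replicates 1 and 3. It also stood high in control replicate 1, at 0.50 above its mean, where Meiob and Rad51ap2 were at -0.15 and -0.72. Hsf2bp, Spata22 and Brca2 were below their means in control replicate 1, at -0.40, -0.25 and -0.28. By the root mean square difference of these deviations over the 8 libraries, the member closest to Rad51ap2 was Meiob, at 0.440, and 4 of the 12141 genes compared were closer, the nearest being Serpina3a at 0.415. The member closest to Meiob was Mnd1 at 0.298, with 43 genes closer, and its nearest gene was Tmem59l at 0.210. For the other 6 genes, from 190 (Spata22) to 6101 (Dmc1) of the genes compared were closer than the closest member. The other nearest genes were Melk for Dmc1 at 0.0581, Sirt2 for Hsf2bp at 0.0528, Trafd1 for Psmc3ip at 0.0630, Uvssa for Brca2 at 0.0770, Zwilch for Spata22 at 0.0833 and 1600002K03Rik for Mnd1 at 0.146. These are descriptions over 8 libraries that share the same 2 groups.

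**Figure D3:**
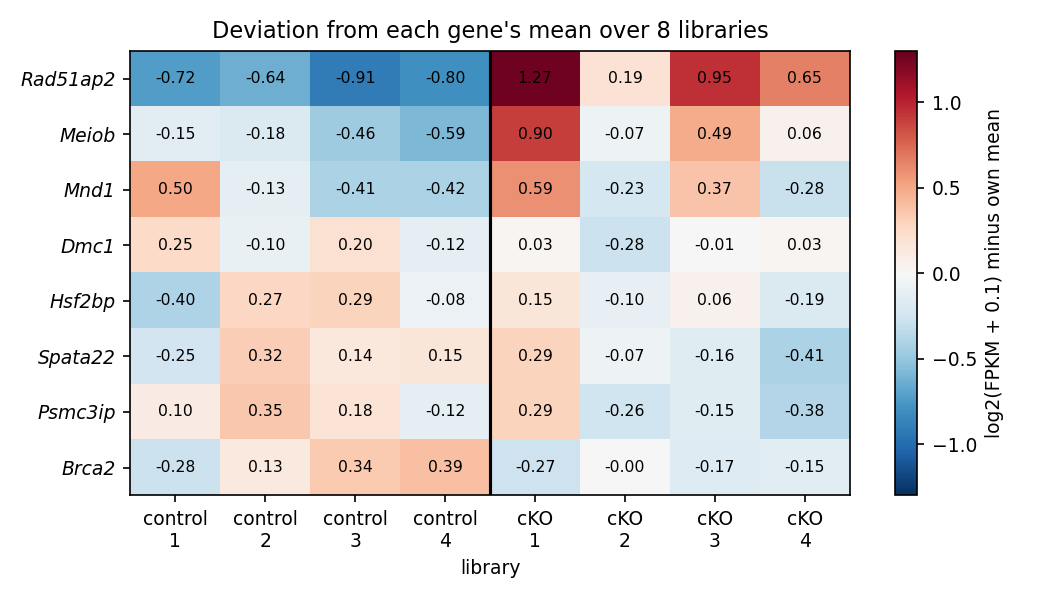
Deviation of log2(FPKM + 0.1) from each gene's mean over the 8 libraries (colour scale and printed values), with genes in rows and libraries in columns, controls to the left of the line. Rad51ap2 is below its mean in 4 of 4 controls and above it in 4 of 4 Sync-SpdyacKO libraries, and Meiob is higher in every Sync-SpdyacKO library than in every control.

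The genes that act beside these 8 were followed as lists. Of 27 genes, 26 were tested and none was called, with log2 fold changes below 0 in 21 and above 0 in 5 and an absolute value of at most 0.39; of all 12141 genes, 48.0% were below 0. Of Rad51b, Rad51c, Rad51d, Xrcc2 and Xrcc3, 4 of 5 were tested (Rad51b was below the limit), none with an unadjusted p below 0.05, and the median log2 fold change was -0.17. Rad51c, which supports filament assembly, averaged 11.1 and 9.19 FPKM (log2 fold change -0.25, limma adjusted p = 0.608). All 3 RPA subunits had log2 fold changes below 0 with a median of -0.13, none with an unadjusted p below 0.05. Rpa2 averaged 44.5 and 42.6 FPKM and Rpa1 29.0 and 26.4 FPKM.

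The 19 other recombinase regulators were all tested, with a median log2 fold change of -0.12. At an unadjusted p below 0.05, 1 was higher and 2 were lower, together 3 of 19, against 10.9% of all genes tested. Swsap1, a mediator of homologous recombination, was at 4.04 ± 0.840 and 5.21 ± 0.293 FPKM (SD, n = 4 each; log2 fold change 0.38, limma adjusted p = 0.413). Helq, a DNA helicase, was at 10.4 ± 1.42 and 8.11 ± 0.911 FPKM (SD, n = 4 each; log2 fold change -0.35, limma adjusted p = 0.350), and all 4 Sync-SpdyacKO libraries were below the controls. Spidr, a scaffold protein of homologous recombination, was at 5.39 ± 0.499 and 4.49 ± 0.220 FPKM (SD, n = 4 each; log2 fold change -0.26, limma adjusted p = 0.439). None of the 3 passed the adjusted threshold. The most abundant regulators were Sfr1, at 93.7 and 89.7 FPKM, and its partner Swi5, at 45.8 and 47.8 FPKM, with log2 fold changes of -0.06 and 0.06.

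**Figure D4:**
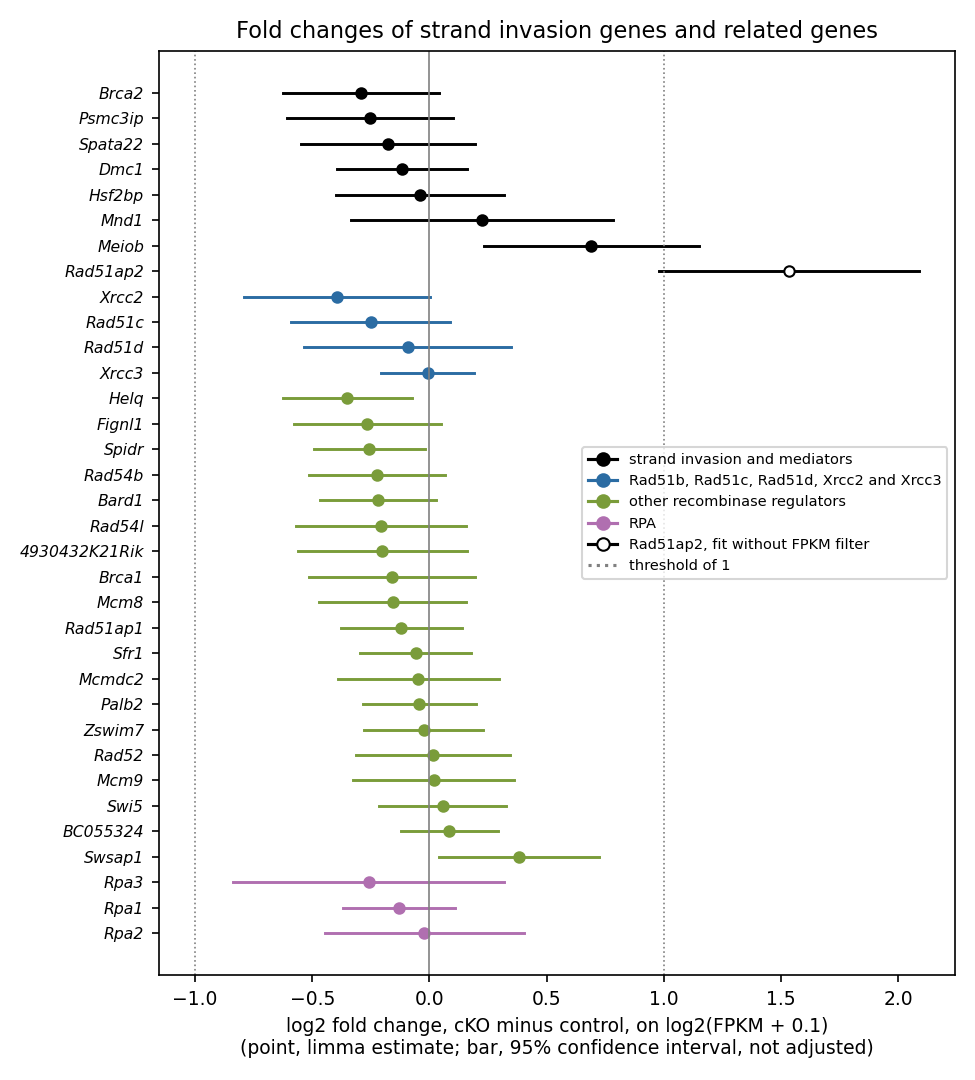
Log2 fold change (Sync-SpdyacKO minus Sync-Spdyafl/fl, on log2(FPKM + 0.1)) of the 8 genes and of 26 related genes, as limma estimates with unadjusted 95% confidence intervals; dotted lines mark the threshold of 1 in either direction. Only Meiob, Rad51ap2 and Swsap1 have intervals above 0 and only Helq and Spidr below 0, and only the estimate of Rad51ap2 (open point, fit without the limit on FPKM) is past 1.

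Genes of other stages and cell types moved with the groups as follows. The 8 genes of double-strand break formation had a median log2 fold change of -0.23, and 7 of the 8 were below 0, where 48.0% of all genes tested were. At an unadjusted p below 0.05, 3 of the 8 were lower and none higher, against 10.9% of all genes tested in either direction. These 3, named after their values were seen, were Rec114, Ccdc36 and Prdm9, with log2 fold changes of -0.31, -0.39 and -0.34. Spo11, which makes the breaks and was the most abundant, averaged 20.5 and 21.9 FPKM and was the 1 gene of the list above 0. The pachytene genes tested, 6 of 8, all had log2 fold changes below 0, with a median of -0.29, and 2 of the 6, Ldhc at -0.73 and Piwil1 at -0.40, had an unadjusted p below 0.05. Of the 2 below the limit on FPKM, Ccna1 was at 1.65 and 0.964 FPKM and Hist1h1t, in the opposite direction, at 0.279 and 0.667 FPKM (log2 fold changes -0.72 and 0.96 in the fit without the limit, limma adjusted p = 0.301 and 0.323). The summed levels overlapped for 4 germ cell genes (576 to 706 against 498 to 738 FPKM), 8 pachytene genes (1281 to 2037 against 1102 to 1659 FPKM) and 7 spermatogonial genes (199 to 300 against 269 to 282 FPKM). They also overlapped for 5 Leydig cell genes (15.6 to 33.2 against 25.2 to 41.0 FPKM), 3 peritubular genes (42.7 to 73.1 against 71.6 to 101 FPKM), 3 macrophage genes (3.73 to 6.24 against 5.87 to 8.35 FPKM) and 3 endothelial genes (4.01 to 9.52 against 9.07 to 11.6 FPKM). The most abundant genes of the somatic lists were each higher on average in the Sync-SpdyacKO libraries: Clu of Sertoli cells at 823 and 1056 FPKM, Hsd3b1 of Leydig cells at 11.2 and 20.2 FPKM, Acta2 of peritubular cells at 49.5 and 72.8 FPKM, Cd68 of macrophages at 2.10 and 2.88 FPKM and Cdh5 of endothelial cells at 3.98 and 6.19 FPKM. Lower on average were Tagln of peritubular cells (0.855 and 0.712 FPKM), Rhox5 of Sertoli cells (6.11 and 5.84 FPKM) and Insl3 of Leydig cells (0.576 and 0.572 FPKM). Tagln and Insl3 were below the limit on FPKM, and Rhox5 had a log2 fold change of 0.16. Log2 fold changes were above 0 in all somatic genes tested: 6 Sertoli, 2 Leydig, 2 peritubular, 3 macrophage and 2 endothelial. At an unadjusted limma p below 0.05 were 1 Leydig, 1 peritubular, 1 macrophage and 2 endothelial genes, against 10.9% of all genes tested in either direction. Uchl1 of spermatogonia averaged 89.1 and 111 FPKM. Id4, the 1 spermatogonial gene with a log2 fold change below 0, averaged 32.0 and 24.1 FPKM. The part of these shifts in the values of Meiob and Rad51ap2 was not tested.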

How the data were processed

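The authors deposited FPKM values for 54532 genes in 8 libraries (paired-end; mRNA-seq kit on testis RNA; a column kit per the labels, Trizol per the study's methods). The submitters' processing notes name GRCm38 and mm10, and 6 of the 8 genes have the same start and end in GENCODE vM21. Meiob and Hsf2bp do not. Their counted lengths were 1703 and 2973 bases, against 1801 and 3589 exonic bases in that annotation. The aligner, counting tool and use of strand are not given in the sources used here. FPKM multiplied by gene length gave whole fragments for 100% of values above 0 (tolerance 0.02).

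Values were transformed as log2(FPKM + 0.1) and fitted with limma 3.58.1 under R 4.3.3, using lmFit and a trended eBayes on the 4 and 4 libraries with no covariate. Protein-coding genes above 1 FPKM on average in both groups entered the fit, with Benjamini-Hochberg adjustment over all genes tested. This scale understates changes of low genes. The study's own test, DESeq2, was not run. Ratios were compared by exact permutation tests over 70 assignments (scipy 1.17.1), adjusted over the 4 ratios compared, of which 1 is not reported here. The limma fit was also run on simulated fragments with known changes, without a library standing apart as control replicate 1 did. That run does not check the fit with such a library.

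The 8 genes and all lists were chosen with earlier results of these data known. Genes named are the 8, their ratio partners, listed pathway genes with an unadjusted p below 0.05, the 2 most abundant of each pathway list and the most abundant of each stage and cell type list, Spdya and the nearest genes by deviation. Overlapping genes, promoter matches and further genes of the stage and cell type lists were named after their values were seen.

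No pair of replicates was alike within sampling noise (chi-square per gene at least 4.05). Libraries of the same number had deviations from their group means that correlated at 0.0757 to 0.406. Control replicates 1, 2 and 4 each matched the Sync-SpdyacKO library of their own number best, at 0.288, 0.131 and 0.406. Control replicate 3 did not, at 0.0757 against 0.128 for number 1. A shared litter or batch behind the numbers was not tested. The main fit assumed no pairing of mice by number, and a fit with the number as a block is given below. Alternatives were other pseudocounts, filters, scalings, all biotypes, a replicate block, array weights, no trend, voom and leaving out libraries.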

Additional observations from a re-analysis of the deposited data

Results flagged for a closer look

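Dmc1 in Sync-SpdyacKO replicate 2 was at 7.77 FPKM, far below the 9.40 to 9.66 FPKM of the other 3 Sync-SpdyacKO libraries, which lay close together. It was 1 such library among 24 groups of 4 examined, where chance gives about 1.2.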

How the results depend on the processing

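None of the 7 genes tested was called under any of the 20 alternatives, nor was Rad51ap2 in the 18 run on it. Of all 12141 genes, 57 were called with array weights, against 2 in the main fit. The number at an unadjusted p below 0.05, which was 1, became 2 with no filter on FPKM (Meiob and Rad51ap2) and 4 with array weights (Psmc3ip, Meiob, Spata22 and Brca2), where the weight was 0.161 for control replicate 1 and 4.45 for Sync-SpdyacKO replicate 3. With each library left out in turn it was 1 to 2, with Brca2 added without control replicate 1 and Psmc3ip added without Sync-SpdyacKO replicate 1. Without Sync-SpdyacKO replicates 1 and 3 it was again 1, but Psmc3ip in place of Meiob. Over all 12141 genes, 1322 had an unadjusted limma p below 0.05 in the main fit and 2543 with array weights. There were 1897 without control replicate 1, 1551 without Sync-SpdyacKO replicate 1 and 976 without Sync-SpdyacKO replicates 1 and 3. With no filter on FPKM there were 1913 of 19122. The log2 fold change of Hsf2bp changed sign to 0.037 with rescaling to TPM, 0.042 without control replicate 2, 0.048 without control replicate 3 and 0.015 without Sync-SpdyacKO replicate 4, and was -0.18 without control replicate 1. That of Mnd1 changed to -0.14 without Sync-SpdyacKO replicates 1 and 3, a setting added after seeing the data. The log2 fold changes of Dmc1, Meiob, Spata22, Brca2, Psmc3ip and Rad51ap2 kept their sign under all alternatives run, but not their size: leaving out 1 library gave -0.177 to -0.0438 for Dmc1, -0.303 to -0.0685 for Spata22, -0.433 to -0.209 for Brca2 and -0.392 to -0.169 for Psmc3ip. The value nearest 0 came without Sync-SpdyacKO replicate 2 for Dmc1, Sync-SpdyacKO replicate 4 for Spata22 and Psmc3ip, and control replicate 4 for Brca2. For Meiob the value ranged from 0.34 to 0.83 and the adjusted p from 0.113 to 0.688. For Rad51ap2 these ranges were 0.65 to 1.81 and 0.0652 to 0.553. With each library left out, the log2 difference of the ratio of Meiob to Spata22 was 0.76 to 1.04, of Psmc3ip to Mnd1 -0.69 to -0.36 and of Hsf2bp to Brca2 0.13 to 0.34. The causes were not tested.

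With the replicate number as a block, Meiob had the same log2 fold change with a limma adjusted p of 0.140, and 0 of the 7 genes were called. The paired exact sign-flip test of the same 3 ratios gave p of 0.125, 0.25 and 0.25, with 0.125 the smallest possible. Rescaling to TPM moved the share of higher genes among all those at an unadjusted p below 0.05 from 54.1% (715 higher, 607 lower) to 71.6% (907 higher, 360 lower) and the median log2 fold change from 0.01 to 0.09. The groups of 4 limit an exact p to 0.0286, and the 12 to 18 fragments of Rad51ap2 in the controls limit its fold change.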
